A study of Mus musculus with 6 samples.

Results

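The genes described here encode the short-range and diffusible cues that steer axons and their receptors: the Eph receptors, the ephrins, the Slits, the Robo receptors, the netrins, and the netrin receptors Dcc, neogenin (Neo1) and Unc5. They were chosen by a rule on gene symbols, with earlier results of these data known. Of the 24346 symbols measured, 40 met that rule. Messenger RNA from whole mouse retina was sequenced in 3 libraries from mice with a conditional knockout of Cyfip2, labelled Cyfip2 CKO, and in 3 libraries from controls labelled Cyfip2 WT. Not given in the sources used here were age, sex, the knockout alleles and the Cre driver. The design text gives the purpose as finding how the retinal transcriptome differs when Cyfip2 is deficient. Nothing states that the libraries of a group came from separate animals, so the p-values measure only the spread between these libraries, which may be technical.

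Eph receptors are receptor tyrosine kinases that are activated by ephrins on the surface of a neighbouring cell. Ephrin-A proteins are tethered to the membrane by a lipid anchor and mainly bind EphA receptors, whereas ephrin-B proteins span the membrane and mainly bind EphB receptors. In the developing retina these molecules are laid out in gradients, EphA and ephrin-A along the nasal-temporal axis and EphB and ephrin-B along the dorsal-ventral axis, and the gradients set where ganglion cell axons end in the brain. Slits are secreted repellents that act through Robo receptors and keep ganglion cell axons in the nerve fibre layer. Netrin-1 attracts axons through Dcc, for instance at the optic disc of the embryo, and can repel them through Unc5. Cyfip2 is a subunit of the WAVE regulatory complex, an activator of branched actin assembly, which is among the cell machinery that guidance receptors act upon.

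Cyfip2 itself was lower by 5.41-fold in the CKO libraries. It was at 8.33, 10.2 and 11.2 FPKM (fragments scaled by transcript length and library depth) in CKO libraries 1 to 3 and at 35.5, 63.1 and 62.3 FPKM in WT libraries 1 to 3 (limma adjusted p = 0.02389). WT 1 thus held less Cyfip2 than the other WT libraries, and it stood above every CKO library. With 1 library left out, the limma adjusted p of Cyfip2 ran from 0.000985 (without WT 1) to 0.182 (without WT 2) and was over 0.05 in 5 of 6 cases, all but the fit without WT 1. The tissue label was borne out by its markers, with summed FPKM of 8 rod genes between 13694 and 15707 in all libraries. Of 8 oligodendrocyte genes, 3 averaged under 0.1 FPKM, among them Olig2, which was listed at 0 in every library. Lens genes were uneven, with a summed 225.6 FPKM in WT 2, 79.8 in WT 3 and 25.6 to 42.7 in the other 4 libraries. The sum over 10 ganglion cell markers was 697.3 to 713.6 FPKM in CKO and 763.8 to 805.5 FPKM in WT, with 9 of 10 markers below 0 in log2 fold change and none past the threshold. For 8 amacrine cell markers the sum was 449.8 to 467.0 FPKM in CKO and 393.6 to 419.991 FPKM in WT, with 7 of 8 above 0 and none past the threshold. In whole retina, fewer cells of a type and less RNA per cell cannot be told apart.

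Transcripts of every guidance class were measured in the retina. The leading gene held 79.3% to 79.9% of the Slit sum, 67.3% to 71.7% of the Robo sum and 63.7% to 71.7% of the netrin sum. In the other classes its share ran from 21.4% (Epha8 among EphA receptors) to 41.9% (Efnb3 among ephrin-B genes). FPKM is scaled by transcript length, so levels of different genes can be set side by side. Over all 6 libraries the most abundant member was Ntng2, which encodes netrin-G2, a lipid-anchored relative of the netrins that binds a leucine-rich repeat protein of the synapse and not Dcc, with 40.5 to 55.4 FPKM. Slit2 followed with 36.9 to 40.3 FPKM, then Neo1 with 20.8 to 23.8 FPKM and Robo2, the main Slit receptor of ganglion cells, with 19.8 to 22.5 FPKM. The ranges of Neo1 and Robo2 overlapped, while those of Ntng2 and Slit2, of Slit2 and Neo1, and of Robo2 and Epha8 did not. From Epha8 (13.8 to 16.3 FPKM) down to Ephb4 (1.24 to 1.64 FPKM), each gene's range overlapped that of the next in order, so that neighbouring ranks are not separated by these libraries.

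Of the 40 members, 36 had a mean of at least 1 FPKM and entered the test, and 4 did not. The 4 were Efna4 at 0.336 to 0.995 FPKM, Ntn1 at 0.0995 to 0.398 FPKM, Slit3 at 0.0972 to 0.259 FPKM and Epha1 at 0.0449 to 0.246 FPKM. CKO and WT ranges overlapped for each of them. Ntn1 encodes netrin-1, the classical Dcc ligand, so its receptor Dcc (4.598 to 5.36 FPKM) and the Unc5 genes were measured at far higher levels than this ligand.

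**Figure D1:**
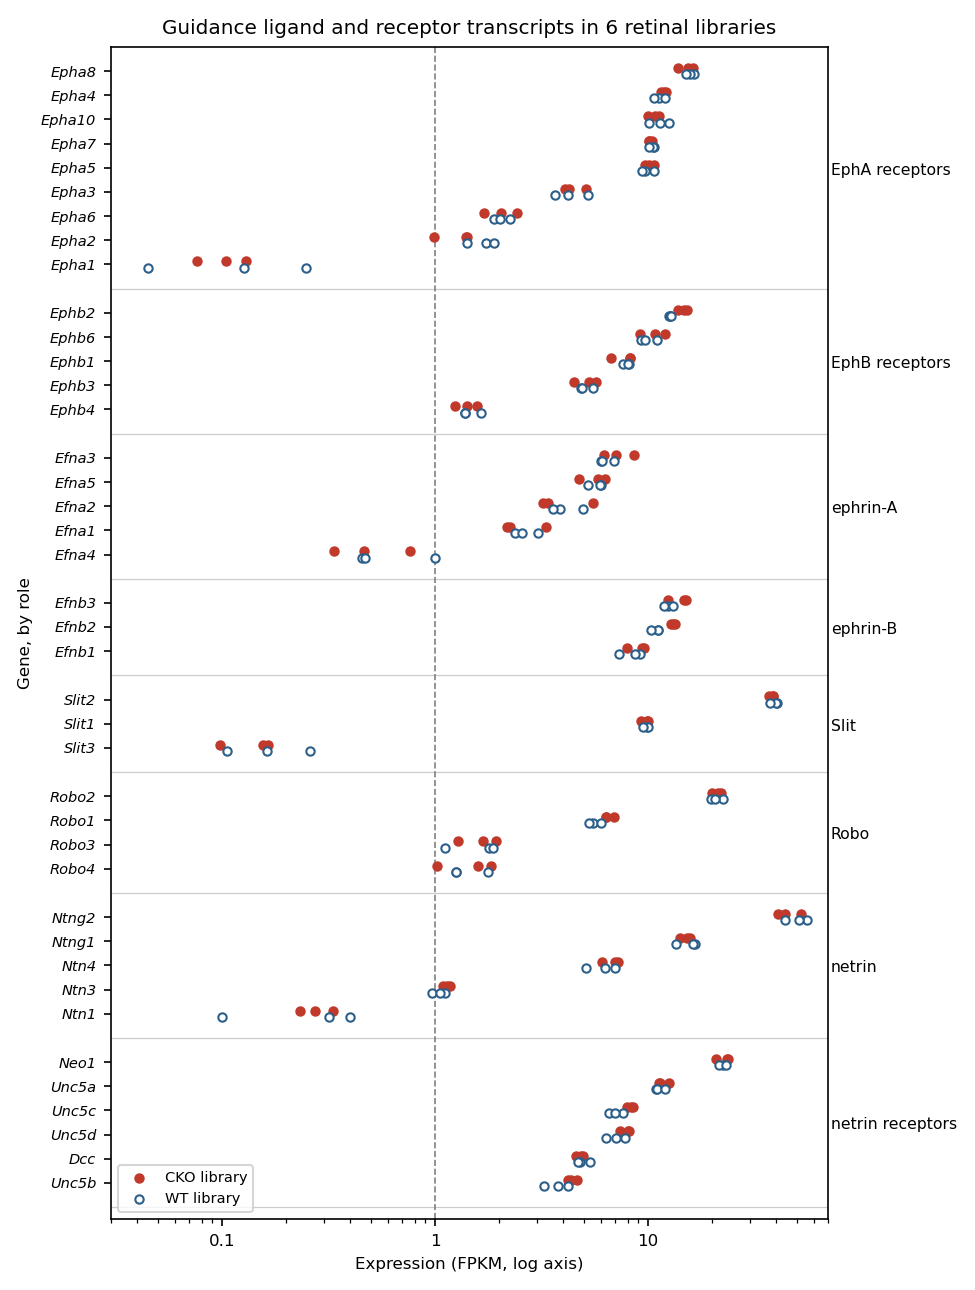
Expression in FPKM on a log axis for the 40 guidance genes, grouped by role, with a filled point for each of 3 CKO libraries and an open point for each of 3 WT libraries. The dashed line marks the minimum mean of 1 FPKM for testing, and Ntng2, Slit2, Neo1 and Robo2 stand farthest to the right.

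No guidance gene differed between CKO and WT past the threshold. By limma, 0 of 36 tested members were higher and 0 were lower at an adjusted p of 0.05, against 0.0151% higher and 0.00757% lower among all 13215 genes tested. At an unadjusted p under 0.05, 4 members (11.1%) lay higher in CKO and 0 lay lower, where the shares over all genes were 3.52% and 4.36%. The groups did not overlap for the same 4 members, all with CKO above WT, where 6.96% of all genes did not overlap in that direction and 6.95% in the other. The share of members without overlap in either direction, 11.1%, was thus below the 13.9% of all genes. The 4 genes were Efnb2, Ephb2, Unc5c and Robo1.

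Fold changes were small throughout. They are differences on the log2(FPKM + 1) scale, on which changes of low genes are understated. Of the 36 members, 21 lay above 0 and 15 below, with a median of 0.019 beside -0.0016 over all genes, and a range from -0.24 (Epha2) to 0.24 (Efnb2). The 95% confidence interval lay within a change of 1.5-fold in either direction for 36 of 36 members, and for 92.8% of all genes. With a pseudocount of 0.1 in place of 1 it did so for 32 members, the exceptions being the low genes Epha2, Robo3, Robo4 and Ntn3.

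**Figure D2:**
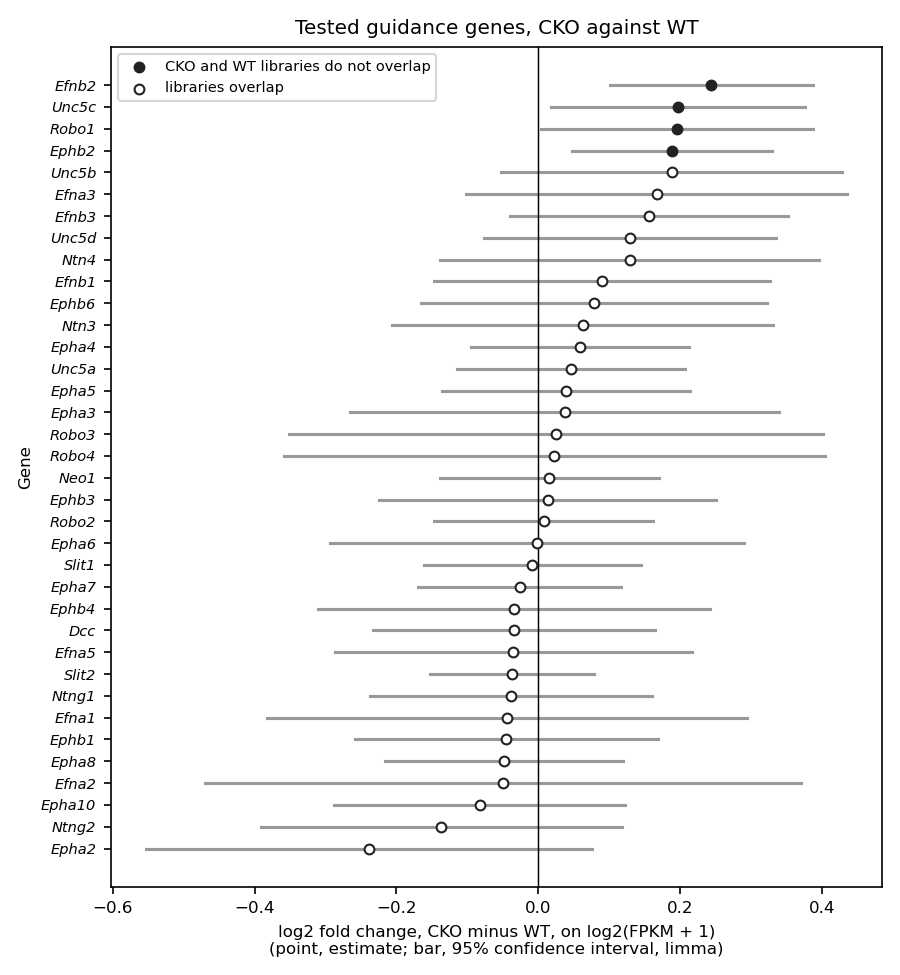
Log2 fold change of CKO against WT with its 95% confidence interval for the 36 tested members, ordered by size, filled where the 3 CKO and 3 WT libraries do not overlap. The filled points are Efnb2, Unc5c, Robo1 and Ephb2, and the intervals of the other 32 genes include 0.

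Ephrin-B ligands all had estimates above 0, and Efnb2 had the smallest p of the 36 tested members. Efnb2 encodes ephrin-B2, a membrane-spanning ligand of EphB receptors and of EphA4 that also signals into the cell that bears it. It was at 13.03, 12.8 and 13.3 FPKM in CKO libraries 1 to 3 and at 11.2, 11.1 and 10.3 FPKM in WT libraries 1 to 3. Each CKO library lay above each WT library. The means were 13.1 ± 0.266 and 10.9 ± 0.458 FPKM (SD, n = 3 each), a ratio of 1.20, with a log2 fold change of 0.24 (SE 0.06, 95% confidence interval 0.10 to 0.39, limma adjusted p = 0.3954). In GRCm38 the gene spans positions 8617434 to 8661242 of chromosome 8, minus strand, and the annotated genes E230020D15Rik, Gm45073 and Gm45074 overlap it on the same strand, so its value is uncertain to the extent that reads were shared with them. Ephrin-B2 is also a marker of arterial endothelium. Of 10 endothelial markers, 8 lay below 0, 2 lay above it and none passed the threshold. Their sums were 127.1 to 140.2 FPKM in CKO and 133.6 to 142.9 FPKM in WT, which overlapped. The largest part of these sums was Kdr, at 57.3 to 70.7 FPKM, which lay above 0 (log2 fold change 0.11). Pecam1, Cldn5 and Tie1 lay lower in CKO without overlap, and the groups of the other markers overlapped. The part of endothelium in the Efnb2 values was not tested.

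The other ephrin-B genes overlapped between the groups. Efnb3 had the highest mean of the ephrin genes over all libraries, though Efnb2 stood above it in CKO 3. Efnb3 was at 14.7, 15.0 and 12.4 FPKM in CKO and at 12.3, 13.1 and 11.9 FPKM in WT. Its CKO 3 value lay inside the WT range (log2 fold change 0.16, 95% confidence interval -0.04 to 0.35). Efnb1, an X-linked gene, was at 7.97 to 9.57 FPKM in CKO and 7.31 to 9.14 FPKM in WT (0.09, interval -0.15 to 0.33). The sum over the 3 ephrin-B genes was 35.03 to 37.3 FPKM in CKO and 30.9 to 32.6 FPKM in WT. The ratio of Efnb2 to Efnb1 was 1.36 to 1.61 in CKO and 1.20 to 1.52 in WT, which overlapped. Efnb2, chosen here for its own lack of overlap, contributes to that sum, and no test was made of it.

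Among EphB receptors the groups were apart for Ephb2 and overlapped for the other 4. Ephb2 encodes a receptor that is high in the ventral retina of the embryo and is also found at synapses. It was at 14.7, 15.2 and 13.8 FPKM in CKO and at 12.5, 12.6 and 12.8 FPKM in WT. All CKO libraries lay above all WT libraries, and the WT libraries were close together, with a coefficient of variation of 1.41%. The means were 14.6 ± 0.725 and 12.6 ± 0.178 FPKM (SD, n = 3 each), a ratio of 1.15, with a log2 fold change of 0.19 (SE 0.06, interval 0.05 to 0.33, limma adjusted p = 0.529). The gene spans positions 136647539 to 136835988 of chromosome 4, minus strand, and no other annotated gene overlaps it.

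Ephb6, which encodes a receptor without kinase activity, was next in level, at 10.7, 9.16 and 11.96 FPKM in CKO and 11.01, 9.25 and 9.63 FPKM in WT. The groups overlapped (log2 fold change 0.08, interval -0.17 to 0.32). Ephb1, the receptor that turns ventrotemporal ganglion cell axons to the same side at the optic chiasm, was at 6.65 to 8.23 FPKM in CKO and 7.63 to 8.13 FPKM in WT (-0.04, interval -0.26 to 0.17). The ratio of Ephb2 to Ephb1 was 1.68 to 2.29 in CKO and 1.55 to 1.64 in WT. Ephb3, a partner of Ephb2 in ventral axons, was at 4.48 to 5.70 FPKM and 4.83 to 5.53 FPKM. Ephb4, the receptor of venous endothelium, was at 1.24 to 1.56 FPKM and 1.37 to 1.64 FPKM.

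EphA receptors gave the highest sum of the Eph and ephrin classes, 64.5 to 67.5 FPKM in CKO and 64.5 to 68.6 FPKM in WT, and none of the 8 tested had groups apart. Epha8 led the class, at 13.8, 16.3 and 15.4 FPKM in CKO and 16.3, 15.7 and 15.1 FPKM in WT (log2 fold change -0.05, interval -0.22 to 0.12). Epha4, which binds ephrins of both classes, was at 11.5, 11.8 and 12.1 FPKM in CKO and 11.2, 12.002 and 10.7 FPKM in WT (0.06, interval -0.09 to 0.21). For both genes the groups overlapped. Epha7 was the steadiest, with 10.1 to 10.4 FPKM in CKO and 10.1 to 10.6 FPKM in WT. Epha10, which encodes a second receptor without kinase activity, was at 9.99 to 11.2 FPKM and 10.1 to 12.6 FPKM.

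The remaining tested EphA receptors likewise had groups that overlapped. Epha5 was at 9.68 to 10.7 FPKM in CKO and 9.30 to 10.7 FPKM in WT (log2 fold change 0.04, interval -0.14 to 0.21). Epha6 was at 1.68 to 2.43 FPKM and 1.89 to 2.23 FPKM (-0.0017, interval -0.29 to 0.29). Epha3 was at 4.07 to 5.096 FPKM and 3.64 to 5.22 FPKM. Epha2, an epithelial receptor, had the lowest estimate of all members, at 0.989, 1.40 and 1.41 FPKM in CKO and 1.41, 1.72 and 1.88 FPKM in WT. CKO 3, at 1.406 FPKM, lay just above WT 1, at 1.405 FPKM, so the groups overlapped by that margin. Its log2 fold change was -0.24 (interval -0.55 to 0.08, limma adjusted p = 0.7363) and, on a scale with a pseudocount of 0.01, -0.41.

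For every tested ephrin-A gene the CKO and WT libraries overlapped. Efna3 led the class, at 8.58, 7.04 and 6.21 FPKM in CKO and 5.99, 6.09 and 6.91 FPKM in WT. CKO 1 stood above all others, and CKO 3 lay inside the WT range (log2 fold change 0.17, interval -0.10 to 0.44). Efna5, a temporal-axon repellent of the visual targets in the brain, was at 4.74, 6.25 and 5.78 FPKM in CKO and 5.999, 5.96 and 5.23 FPKM in WT (-0.03, interval -0.29 to 0.22). Efna2 was at 5.48, 3.38 and 3.21 FPKM in CKO and 4.95, 3.87 and 3.58 FPKM in WT, highest in the library numbered 1 of each group. Efna1 was at 2.18 to 3.30 FPKM and 2.38 to 3.03 FPKM. In all, 7 of the 36 members (Dcc, Efna2, Efnb1, Epha3, Epha7, Ephb4 and Ntn3) were highest in library 1 of both groups, where the share over all tested genes was 16.1%.

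Most of the Slit signal came from Slit2, which held 79.3% to 79.9% of the Slit sum in every library. Slit2 was at 36.9, 38.7 and 38.6 FPKM in CKO and at 40.3, 39.7 and 37.3 FPKM in WT. The groups overlapped (log2 fold change -0.04, interval -0.15 to 0.08). Slit1 was at 9.20, 9.93 and 9.87 FPKM in CKO and 9.85, 9.93 and 9.40 FPKM in WT (-0.0082, interval -0.16 to 0.15). The ratio of Slit2 to Slit1 was 3.90 to 4.004 in CKO and 3.97 to 4.09 in WT, which overlapped. Both intervals exclude a change of 1.5-fold on this scale.

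Among Robo receptors the groups were apart for Robo1 and overlapped for the other 3. Robo1 was at 6.36, 6.32 and 6.93 FPKM in CKO and 5.51, 5.997 and 5.24 FPKM in WT. CKO 2, the lowest of its group, stood above WT 2, the highest of its own. Means were 6.54 ± 0.344 and 5.59 ± 0.382 FPKM (SD, n = 3 each), a ratio of 1.17, with a log2 fold change of 0.20 (SE 0.08, interval 0.0041 to 0.39, limma adjusted p = 0.6214). The gene spans positions 72308306 to 73046095 of chromosome 16, plus strand, and the pseudogene Gm49670 overlaps it on the other strand. Robo2, its more abundant paralog, was at 19.9, 21.2 and 22.02 FPKM in CKO and 19.8, 22.5 and 20.5 FPKM in WT (0.0076, interval -0.15 to 0.16). The ratio of Robo1 to Robo2 was 0.299 to 0.319 in CKO and 0.255 to 0.279 in WT. Robo3, the receptor of commissural axons, was at 1.28 to 1.93 FPKM and 1.114 to 1.86 FPKM. Robo4, an endothelial Robo, was at 1.01 to 1.83 FPKM and 1.25 to 1.77 FPKM. The estimates of Robo2, Robo3 and Robo4 changed sign when single libraries were left out.

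Netrins were dominated by the 2 netrin-G genes. Ntng2 was at 40.5, 43.6 and 52.2 FPKM in CKO and 43.7, 55.4 and 51.0 FPKM in WT. The libraries numbered 1 were the lowest of each group, and the groups overlapped (log2 fold change -0.14, interval -0.39 to 0.12). Ntng1, which binds a different partner from Ntng2, was at 14.1, 15.7 and 15.2 FPKM in CKO and 16.6, 16.2 and 13.6 FPKM in WT (-0.04, interval -0.24 to 0.16). Their partners were at similar levels in the groups: Lrrc4c, which binds netrin-G1, averaged 12.9 FPKM in each, and Lrrc4, which binds netrin-G2, averaged 12.8 FPKM in CKO and 12.3 FPKM in WT. Ntn4, a basement membrane netrin, was at 6.09 to 7.19 FPKM and 5.12 to 7.01 FPKM. Ntn3 was at 1.09 to 1.18 FPKM and 0.966 to 1.12 FPKM.

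Among netrin receptors, 5 of 6 estimates lay above 0, and Unc5c was the member whose groups were apart. Unc5c encodes a repulsive netrin receptor. It was at 8.26, 8.46 and 7.97 FPKM in CKO and 7.61, 6.58 and 6.98 FPKM in WT, so that WT 1 came nearest to the CKO range. Means were 8.23 ± 0.248 and 7.06 ± 0.522 FPKM (SD, n = 3 each), a ratio of 1.17, with a log2 fold change of 0.20 (SE 0.08, interval 0.02 to 0.38, limma adjusted p = 0.6007). The gene spans positions 141465216 to 141834924 of chromosome 3, plus strand. The antisense genes Gm15688 and Gm15689, and Gm43826 on the same strand, overlap it, and how the authors' quantification treated strand is not known here, so reads of the 2 strands cannot be told apart.

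Neo1, a netrin receptor that also binds repulsive guidance molecules, was at 20.8, 23.4 and 23.8 FPKM in CKO and 22.5, 21.4 and 23.1 FPKM in WT (log2 fold change 0.02, interval -0.14 to 0.17). Unc5a was at 11.4, 11.3 and 12.5 FPKM in CKO and 10.9, 11.03 and 11.9 FPKM in WT (0.05, interval -0.12 to 0.21). For both genes the groups overlapped. Unc5b, a receptor also of blood vessels, was at 4.18, 4.34 and 4.62 FPKM in CKO and 3.23, 4.20 and 3.78 FPKM in WT (0.19, interval -0.05 to 0.43). Unc5d was at 7.35 to 8.11 FPKM and 6.36 to 7.81 FPKM. Dcc, the attractive receptor, was at 4.598 to 4.95 FPKM in CKO and 4.68 to 5.36 FPKM in WT (-0.03, interval -0.23 to 0.16). The ratio of Unc5c to Dcc was 1.65 to 1.84 in CKO and 1.38 to 1.49 in WT, while that of Neo1 to Dcc was 4.20 to 5.09 in CKO and 4.21 to 4.94 in WT. Of 6 such ratios computed, those of Ephb2, Robo1 and Unc5c, chosen for their own lack of overlap, were apart and the other 3 overlapped.

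**Figure D3:**
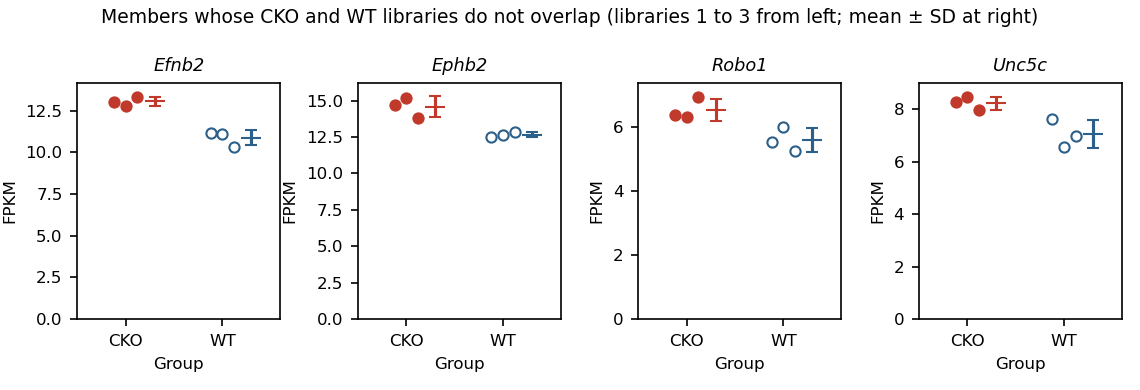
FPKM of Efnb2, Ephb2, Robo1 and Unc5c in each library, with CKO filled and WT open, and the mean ± SD of 3 libraries beside the points on axes that start at 0. In each panel the CKO points lie above the WT points, by ratios of the means of 1.20, 1.15, 1.17 and 1.17.

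The call of these 4 genes by unadjusted p depended on the libraries used and, for Robo1, also on the processing. With all libraries, Robo1 had no unadjusted p under 0.05 under any other filter on low values. The same held with quantile normalization, the replicate block or robust eBayes. Without CKO 2, Efnb2 was the 1 member that kept an unadjusted p under 0.05, and without CKO 1 or without WT 3 the members were Efnb2 and Ephb2. Without CKO 3, Efnb3 stood in place of Robo1, and Ntng2 lay lower in CKO with such a p. Efnb2 had such a p in all 16 alternative fits, Ephb2 in 15, Unc5c in 12 and Robo1 in 5. The smallest adjusted p of any member in any of these fits was 0.3257. The amacrine marker sums (449.8 to 467.0 FPKM in CKO, 393.6 to 419.991 FPKM in WT) and the ganglion cell marker sums (697.3 to 713.6 and 763.8 to 805.5 FPKM) also divide the libraries by genotype. So do the sums of 8 bipolar cell markers (660.7 to 709.6 FPKM in CKO, 718.8 to 732.6 FPKM in WT) and of 8 horizontal cell markers (397.5 to 431.8 and 449.1 to 459.1 FPKM). Of the bipolar markers 6 lay below 0 and 2 above, and of the horizontal markers 7 below and 1, Onecut1, above. None passed the threshold, and Ndrg1 and Sept4 made up most of the horizontal sum. Of 13 marker lists in all, the sums of the others overlapped between the groups. The part of cell type markers in the values of the 4 guidance genes was not tested.

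**Figure D4:**
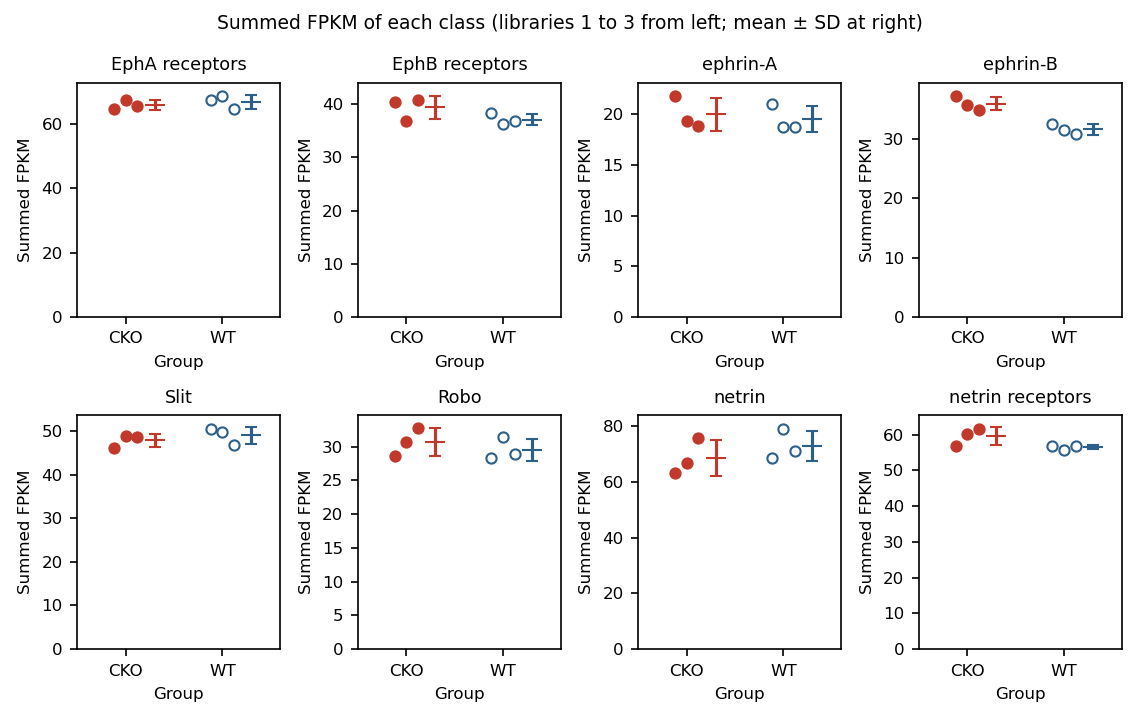
Summed FPKM of each guidance class in each library, with CKO filled and WT open and the mean ± SD of 3 libraries beside the points, on axes that start at 0. The ephrin-B sums of CKO (35.03 to 37.3) lie above those of WT (30.9 to 32.6), the netrin receptor sums are apart by a narrow margin (CKO 1 at 56.9052, WT 3 at 56.9000), and the other classes overlap.

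Genes listed as signalling partners of these cues and receptors showed no member past the threshold either. Among partners of Eph receptors and ephrins, 0 of 33 tested genes were called by limma, 22 lay above 0 and 11 below, with a median log2 fold change of 0.02; at an unadjusted p under 0.05 there were 3 higher (9.09%) and 1 lower (3.03%), beside 3.52% and 4.36% of all genes. The smallest p values were those of Rgs3, whose product binds the tail of ephrin-B and dampens G protein signals, and of Itsn1, an exchange factor partner of EphB2. Rgs3 was at 10.7, 10.1 and 10.4 FPKM in CKO and 12.1, 12.3 and 12.9 FPKM in WT (log2 fold change -0.24, SE 0.06, limma adjusted p = 0.4119). Itsn1 was at 26.9, 28.7 and 28.1 FPKM in CKO and 25.4, 24.2 and 25.2 FPKM in WT (0.15, SE 0.05, limma adjusted p = 0.5383). For each of these genes the groups did not overlap, and they lay in opposite directions.

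Among partners of Slits and Robos, 0 of 22 tested genes were called, 13 lay above 0 and 9 below (median 0.02), with 1 higher (4.55%) and 2 lower (9.09%) at an unadjusted p under 0.05, beside 3.52% and 4.36% of all genes. Nell2, which encodes a secreted ligand of Robo3, was at 24.4, 23.9 and 24.4 FPKM in CKO and 29.6, 27.7 and 28.3 FPKM in WT (-0.23, SE 0.05, limma adjusted p = 0.3165). Srgap3, a GTPase-activating protein that binds Robo1, was at 57.6, 60.3 and 59.96 FPKM in CKO and 53.9, 53.9 and 55.0 FPKM in WT (0.13, SE 0.04, limma adjusted p = 0.545). Neither gene had overlapping groups.

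Of the netrin, Dcc, Unc5 and neogenin partners, 0 of 28 tested were called, with 18 above 0 and 10 below (median 0.04) and 2 higher (7.14%) and 0 lower at an unadjusted p under 0.05, beside 3.52% and 4.36% of all genes. Dapk1, a death-associated kinase that acts with an Unc5 receptor, was at 22.8, 23.7 and 23.7 FPKM in CKO and 20.9, 21.4 and 19.9 FPKM in WT (0.17, SE 0.05, limma adjusted p = 0.5139). Cbln4, a cerebellin that binds Dcc, was at 6.35, 4.27 and 5.12 FPKM in CKO and 4.57, 3.45 and 3.45 FPKM in WT (0.37, SE 0.15, limma adjusted p = 0.6014). The Cbln4 groups overlapped.

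The list of genes that lay out the retinal axes or regulate ganglion cell guidance leaned, as a whole, to values below 0. Of 27 such genes found, 19 were tested: 5 lay above 0 and 14 below, with a median log2 fold change of -0.11 beside -0.0016 over all genes, and 0 were called by limma. Its morphogen and receptor genes did not share that lean: Shh, Ptch1, Boc and Bmpr1b lay above 0, and Bmp4 and Gas1 below. The remaining gene above 0 was the transcription factor Tbx3. At an unadjusted p under 0.05, 1 of the 19 was higher (5.26%) and 4 were lower (21.1%), beside 3.52% and 4.36% of all genes. The groups did not overlap for 6 of the 19 (31.6%), beside 13.9% of all genes. Without WT 1 the median was -0.03 with 12 of 19 below 0, and without CKO 1 it was -0.17 with 15 below 0. Pou4f1, Pou4f2 and Isl2 of this list are also among the ganglion cell markers above, and Isl1 is also a bipolar cell marker.

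Vax2, a homeobox gene of the ventral retina upstream of EphB and ephrin-B patterning, had the smallest p of that list. It was at 20.8, 19.8 and 20.2 FPKM in CKO and 26.2, 24.2 and 23.6 FPKM in WT (log2 fold change -0.27, SE 0.06, limma adjusted p = 0.3081). Tbx2, a T-box gene of the dorsal retina, was at 30.8, 30.0 and 35.8 FPKM in CKO and 38.5, 40.5 and 39.4 FPKM in WT (-0.29, SE 0.07, limma adjusted p = 0.3879). The groups did not overlap for either gene. Tbx3, a second dorsal T-box gene named after its values were seen, lay in the other direction, at 4.81, 5.38 and 5.25 FPKM in CKO and 3.25, 4.10 and 4.27 FPKM in WT (0.34, SE 0.11, limma adjusted p = 0.5182). Vax2 of the ventral side and Tbx2 of the dorsal side thus lay below 0, and Tbx3 of the dorsal side above it.

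**Figure D5:**
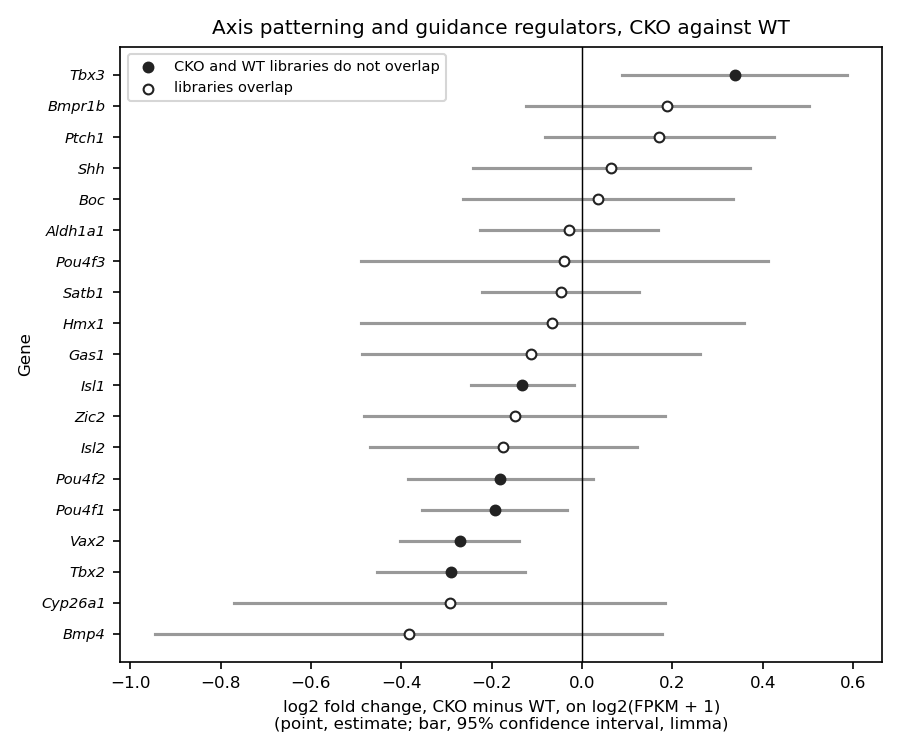
Log2 fold change of CKO against WT with its 95% confidence interval for the 19 tested regulators of retinal axis patterning and ganglion cell guidance, filled where the 3 CKO and 3 WT libraries do not overlap. Tbx3 is the filled point above 0, and Isl1, Pou4f2, Pou4f1, Vax2 and Tbx2 are the filled points below 0.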

How the data were processed

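The authors deposited 1 value per gene symbol and library, taken here as FPKM. The unit was judged from the values and from Cufflinks being among the tools that the submitters' processing notes name: Bowtie2 2.3.5.1, TopHat2 2.0.13, Cufflinks 2.2.1, SAMtools 1.11 and the build mm10. Per the labels' protocols, TRIzol was used for extraction and a TruSeq kit for stranded mRNA for the libraries. Not given in the sources used here were the tools' roles and settings, the annotation and how strand was treated. For 27 symbols that WT 3 holds as dates, none a guidance gene, the symbol was restored.

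Values were tested as log2(FPKM + 1) with limma 3.58.1 in R 4.3.3 (variance trend, no covariate, two-sided) over the 13215 genes averaging 1 FPKM or more, with Benjamini-Hochberg adjustment over all of them at 0.05. The fit was checked on simulated data. FPKM keeps no counts, so absolute depth is unknown. Steps between low values put the depths of the other libraries at 1.034 to 1.312 times that of WT 1. Positions are from GENCODE M21 (GRCm38).

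The members and gene lists were chosen with earlier results of these data known. Values per library are printed for members whose groups did not overlap or whose unadjusted p was under 0.05, for the leading 2 of each class, and for the 2 genes of smallest p in each partner list. Epha2, Efna2, Unc5b, Tbx3 and the netrin-G partners were named after their values were seen. Alternatives were other pseudocounts, other filters on low values, median-of-ratios scaling, quantile normalization, a replicate block, robust or untrended eBayes, and leaving out each library. The counts of unadjusted p and the list medians under these alternatives were added after seeing the data.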

Additional observations from a re-analysis of the deposited data

How the results depend on the processing

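By limma, 0 of the members were called higher and 0 lower in each of the 16 alternative fits. In the fits that left out 1 library, Cyfip2 itself had a limma adjusted p over 0.05 in 5 of 6 cases. The lack of calls in those fits therefore says little about smaller changes. In the 10 fits with all libraries each tested member kept its sign. With 1 library left out at a time, 19 of 36 members kept their sign. For the other 17, the log2 fold changes ran from -0.065 to 0.016 for Dcc, -0.18 to 0.034 for Efna1, -0.25 to 0.063 for Efna2, -0.11 to 0.061 for Efna5, -0.060 to 0.15 for Epha3, -0.089 to 0.087 for Epha6, -0.098 to 0.013 for Epha8 and -0.091 to 0.045 for Ephb1. They ran from -0.051 to 0.094 for Ephb3, -0.080 to 0.017 for Ephb4, -0.0042 to 0.17 for Ephb6, -0.019 to 0.075 for Neo1, -0.12 to 0.015 for Ntng1, -0.031 to 0.058 for Robo2, -0.12 to 0.12 for Robo3, -0.080 to 0.16 for Robo4 and -0.030 to 0.024 for Slit1. The median over the tested members, 0.019, ran from -0.0014 (without WT 3) to 0.045 (without CKO 1), so its sign rests on single libraries.

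Over the whole table, the 2 genes called higher became 1 with the replicate block and without the variance trend, 3 with no filter, quantile normalization or robust eBayes, and 1 (without WT 1 or WT 2) to 3 (without CKO 1 or CKO 2) with a library left out. The count of genes called lower, 1 (Cyfip2), became 0 under robust eBayes, without the variance trend, and with no filter on low values. With a library left out it was 0 (without CKO 2, CKO 3 or WT 2) to 2 (without WT 3). The causes were not tested. With the replicate block, the smallest adjusted p of a member by limma was 0.414, that of Efnb2, and 3 members in place of 4 had an unadjusted p under 0.05. Across genes, deviations from the group means of same-numbered libraries had correlations of 0.072, 0.006 and 0.101. Those of differently numbered libraries ran from -0.119 to 0.036, so 0.072 and 0.101 lay above all of them. All were low, and the numbers were not taken as pairing the libraries, though a shared number may still carry a small common part. Depth as counts is unknown, so the counting error of single values cannot be given.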
